A study of Mus musculus with 4 samples.

Results

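The genes described here are 7 transcription factors of fat cell formation, Pparg, Cebpa, Cebpb, Nr1h3, Ebf1, Ebf2 and Zfp423, and Adig, a gene of fat cell differentiation that encodes a small membrane-associated protein and is not a transcription factor. They are listed by name, with no threshold on their values, though the list was drawn up with earlier results of these data known, and are 8 of the 55573 gene IDs in the count files. RNA-seq counts came from the quadriceps, the large thigh muscle, of 7-week-old mice. The vdr-/- group (knockout below) held 2 libraries from the strain B6.129S4-Vdrtm1Mbd/J, whose germline allele leaves every tissue without a functional vitamin D receptor, and the WT group held 2 libraries from C57BL/6J mice. Both groups were weaned at day 21 and fed regular chow. Whether the libraries of a group came from separate animals is not in the labels, so that p-values rest on a spread that may be technical.

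Fat cells form from progenitors through a cascade of transcription factors. C/EBP-beta, encoded by Cebpb, acts early and helps to switch on Pparg, the nuclear receptor that is needed for fat cell fate, and Cebpa, and the products of these genes then maintain each other and drive the genes of the mature fat cell. The zinc finger factor ZFP423 and the EBF factors mark and commit progenitors, and in skeletal muscle fat cells lie between the fibres and arise from fibro-adipogenic progenitors. Levels in whole muscle are a mixture of these cells with muscle fibres, and in bulk RNA fewer cells of a type and less RNA per cell cannot be told apart.

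The regions just before the transcription start are shown for Pparg, Cebpa and Adig, whose levels were higher in both knockout libraries, and for Cebpb, whose groups overlapped. Nr1h3 and Ebf2 were also higher in both knockout libraries but are not shown, Ebf2 for lack of a RefSeq window. Sequences are 250 bases from RefSeq (build GRCm38.p6), 5′ to 3′ on the gene's strand, ending at the base before the start. For Pparg, the last of its 3 RefSeq starts is used, which gives the isoform typical of fat cells. Positions on the plus strand are chr6:115421816-115422065 for Pparg, chr7:35119043-35119292 for Cebpa, chr2:158502362-158502611 for Adig and chr2:167688665-167688914 for Cebpb. Capitals mark the TATA box, whose letters are TATAAA. They also mark the core unit of nuclear receptor sites, AGGTCA, which PPARG, LXR and the vitamin D receptor bind. A site of C/EBP factors is marked by TTGCNNAA. All motifs were searched on both strands.
Pparg: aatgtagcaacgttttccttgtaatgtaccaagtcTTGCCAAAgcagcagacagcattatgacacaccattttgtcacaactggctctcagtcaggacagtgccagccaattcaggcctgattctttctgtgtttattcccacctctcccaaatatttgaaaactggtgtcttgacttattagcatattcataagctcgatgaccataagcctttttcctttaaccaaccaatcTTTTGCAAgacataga
Cebpa: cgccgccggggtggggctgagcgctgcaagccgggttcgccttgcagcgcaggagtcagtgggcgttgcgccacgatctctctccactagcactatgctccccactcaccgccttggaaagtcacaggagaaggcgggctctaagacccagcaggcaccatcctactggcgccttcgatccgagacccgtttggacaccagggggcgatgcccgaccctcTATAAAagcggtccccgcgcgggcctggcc
Adig: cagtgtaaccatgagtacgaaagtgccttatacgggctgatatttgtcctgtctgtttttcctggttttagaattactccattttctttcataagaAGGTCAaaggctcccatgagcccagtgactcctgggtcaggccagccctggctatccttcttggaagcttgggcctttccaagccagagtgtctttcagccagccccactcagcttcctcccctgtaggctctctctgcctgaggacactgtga
Cebpb: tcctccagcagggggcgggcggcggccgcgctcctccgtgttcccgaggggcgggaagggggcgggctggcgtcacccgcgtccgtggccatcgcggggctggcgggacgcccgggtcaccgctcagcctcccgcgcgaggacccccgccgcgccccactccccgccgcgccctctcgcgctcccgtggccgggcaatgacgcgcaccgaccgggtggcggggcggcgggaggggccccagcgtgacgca
The letters TTGCNNAA occurred 2 times before the Pparg start and were present in 9.56% of the 32851 RefSeq windows of the same length. TATAAA stood once before the Cebpa start and was present in 12.4% of windows, and AGGTCA stood once before the Adig start and was present in 14.0%. Before the Cebpb start none of these 3 was found, and GGGCGG occurred 5 times (32.7% of windows held at least 1). Of the genes not shown, Nr1h3, also higher in both knockout libraries, had none of these 3 before any start. Zfp423, whose groups overlapped, held AGGTCA and TTGCNNAA, with 1 match each. The other Pparg starts held AGGTCA too, and Ebf1 held none of the 3. Whether these letters go with a change in level was not tested. These matches describe letters and not occupied sites. Of the 8 genes, 7 had RefSeq windows, 12 in all, and none of the 12 held 2 copies of AGGTCA in a row with 1, 3 or 4 bases between them (the forms used by PPARG, the vitamin D receptor and LXR), which 11, 2 and 5 of the 32851 windows held. TCCC followed by GGGA with 2 bases between, a site of EBF factors, and CACGTG were in none of the 12 either, against 0.779% and 6.02% of all windows. CCAAT was found before 2 of the 3 Pparg starts (33.8% of windows) and TGACG before Cebpb (17.8%), and before no other start of the 7 genes.

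Total counts were 21.34 M and 11.21 M in knockout replicates 1 and 2, and 10.79 M and 13.03 M in WT replicates 1 and 2. Vdr had 5 and 1 counts in knockout and 5 and 0 in WT, too few to test, and the allele removes only part of the gene, so Vdr does not check the labels. The groups differed in sex-linked RNA. Xist, which silences an X chromosome in females, had 0 and 3 counts in knockout and 1929 and 2778 in WT, and the Y-linked gene Ddx3y had 1594 and 739 counts in knockout and 50 and 0 in WT. Genotype, sex and strain origin therefore cannot be told apart in any value below. The Y-linked genes Eif2s3y, Uty and Kdm5d had 21, 11 and 13 counts in WT replicate 1. In WT replicate 2 they had 1, 0 and 0. WT replicate 1 thus held low Y-linked RNA beside Xist, and the source of it was not tested. Of the defining markers of muscle fibres, Myh4, a fast myosin heavy chain, was abundant in every library. It stood at 21995 and 22015 CPM in knockout and 23600.4 and 20825 CPM in WT. Myh7, also among these markers, was far lower, at 28.3 and 7.25 CPM in knockout and 12.2 and 13.8 CPM in WT. By edgeR none of 12 such markers was called (1 had an unadjusted p below 0.05), nor of 9 pericyte and smooth muscle markers (2), 8 endothelial markers (2) and 12 macrophage markers (4). DESeq2 called 1 muscle fibre marker lower, Ttn, which encodes titin (-0.50, adjusted p = 0.00696), as did edgeR with no filter on low counts (-0.48, adjusted p = 0.0253). DESeq2 also called 1 pericyte marker lower, Rgs5 (-0.48, adjusted p = 0.0338), and no endothelial or macrophage marker. Of 5 red blood cell markers tested, edgeR called 2 higher (5 had an unadjusted p below 0.05), with a median log2 fold change of 1.04. DESeq2 called 3 of them higher.

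All 8 genes had enough counts to be tested, at least 64 in every library. In knockout muscle Adig, Cebpa and Nr1h3 rose and none of the 8 fell, with p-values from edgeR (quasi-likelihood F test) that were adjusted over all 13076 tested genes by the method of Benjamini and Hochberg and called below 0.05. These are 3 of 8, where 1.61% of all tested genes were called higher, 0.413% lower and 2.03% in either direction. Pparg was higher by as large a fold as Cebpa but did not pass the test. Cebpb, Ebf1 and Zfp423 had overlapping groups, and Ebf2 was higher by less without passing. In 5 of the 8 genes both knockout libraries lay above both WT libraries, which held for 23.0% of all tested genes, and in none did both lie below (21.7% of tested genes). The median log2 fold change, knockout over WT, was 0.70 over the 8 genes and -0.0007 over all tested genes. Values below are TMM-normalised read counts scaled to library size (CPM), means carry the SD (n = 2 in each group), and each log2 fold change sets knockout over WT and carries its SE.

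**Figure D1:**
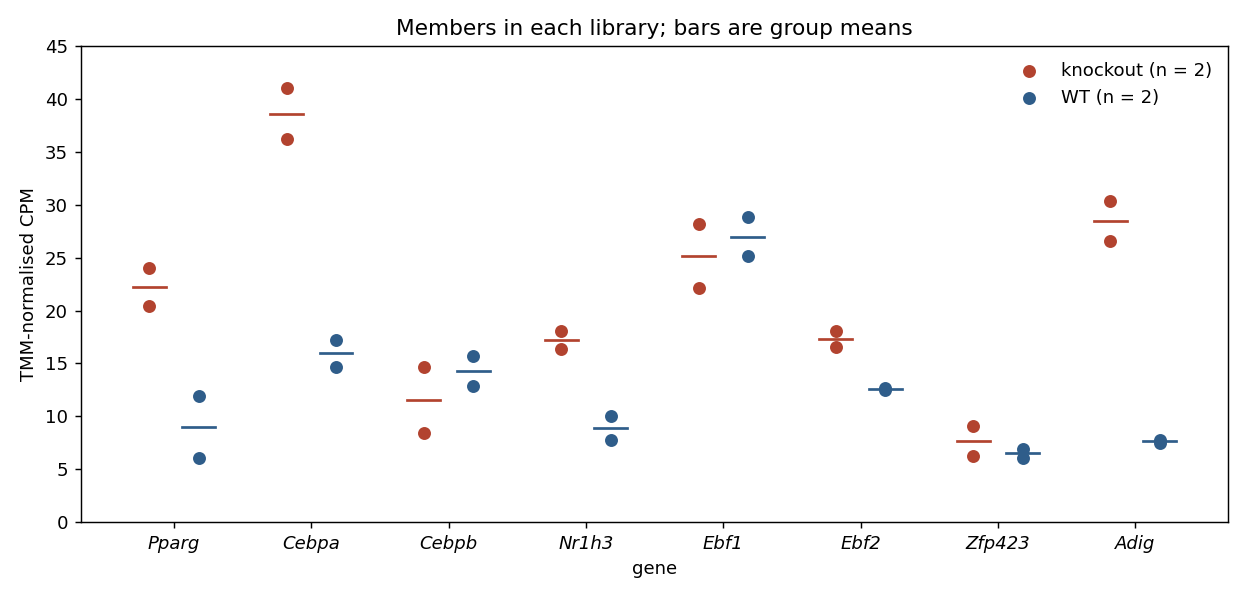
TMM-normalised CPM (y axis) of the 8 genes (x axis) in each library, with knockout left of WT for each gene, points for libraries and bars for group means (n = 2 each). The knockout points of Pparg, Cebpa, Nr1h3, Ebf2 and Adig lie above both WT points, and those of Cebpb, Ebf1 and Zfp423 overlap with WT.

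Cebpa (ENSMUSG00000034957, chromosome 7, 35119293 to 35121928) encodes C/EBP-alpha, a basic leucine zipper factor of the late phase of differentiation. It had 36.2 and 41.0 CPM in knockout and 14.7 and 17.2 CPM in WT. Both knockout libraries were above both WT libraries by more than the distance within either group. Means were 38.6 ± 3.39 CPM in knockout and 15.97 ± 1.81 CPM in WT, a log2 fold change of 1.27 ± 0.15 (adjusted p = 0.00174). The call was kept without each library in turn, with values from 1.16 to 1.39. An opposite-strand gene, Gm45091, shares 51 exonic bases with Cebpa and had between 2 and 8 counts per library.

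Pparg (ENSMUSG00000000440, chromosome 6, 115360951 to 115490399) encodes the nuclear receptor PPAR-gamma, the target of thiazolidinedione drugs. It had 24.0 and 20.5 CPM in knockout and 6.06 and 11.9 CPM in WT. The groups did not overlap, and the WT libraries lay further apart from each other than the knockout libraries did. The means were 22.2 ± 2.50 CPM in knockout and 9.002 ± 4.15 CPM in WT. The log2 fold change was 1.29 ± 0.29 (95% interval 0.62 to 1.97), which did not pass the test (adjusted p = 0.0879, unadjusted p = 0.00276). With DESeq2 it was called (adjusted p = 0.000919), as 4 of the 8 genes then were, where 1.73% of tested genes were called higher. Without WT replicate 1 the value was 0.90 and without WT replicate 2 it was 1.88. The call that edgeR gave in either run says little, since with 1 WT library the spread between the WT libraries is not in the fit. Over all alternatives the adjusted p ranged from 3.97e-05 to 0.39. Counts do not tell the isoforms of Pparg apart.

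The WT libraries also differed in brown fat markers, and these genes were picked after their values were seen. Ucp1, the uncoupling protein of brown fat, stood at 12.1 and 14.6 CPM in knockout and at 1.52 and 34.0 CPM in WT replicates 1 and 2. Cidea, a lipid droplet gene and target of PPARG, stood at 34.9 and 32.1 CPM in knockout and at 3.32 and 15.6 CPM in WT. WT replicate 2 was thus the higher WT library for Pparg, Ucp1 and Cidea alike. Of the other tested brown fat markers, Prdm16, Dio2 and Otop1 were also higher in WT replicate 2. Cox8b (358 and 308 CPM in WT replicates 1 and 2) and Ppargc1a (19.3 and 16.8 CPM) were lower there. The part of brown fat cells in the Pparg values was not tested. Of the 10 brown fat markers, 7 were tested and none was called by edgeR (2 had an unadjusted p below 0.05) or DESeq2. When either WT replicate was left out, edgeR called both Ucp1 and Cidea, Cidea higher each time, but Ucp1 lower without WT replicate 1 and higher without WT replicate 2. The summed level was 374 and 441 CPM in knockout and 390.4 and 388 CPM in WT, most of it from Cox8b, a subunit also made by muscle fibres, and no marker was at 0 in all libraries.

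Adig (ENSMUSG00000044405, chromosome 2, 158502612 to 158508198) encodes adipogenin, a small protein that appears as fat cells differentiate. It had 30.3 and 26.6 CPM in knockout and 7.77 and 7.49 CPM in WT. The WT libraries differed from each other far less than they did from the knockout libraries. Means were 28.5 ± 2.63 CPM in knockout and 7.63 ± 0.198 CPM in WT, the largest log2 fold change of the 8 genes at 1.90 ± 0.15 (adjusted p = 0.000211). It ranked 11 among all tested genes by p, and the value lay between 1.80 and 1.99 without each library in turn, called each time.

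Nr1h3 (ENSMUSG00000002108, chromosome 2, 91184061 to 91202834) encodes LXR-alpha, a receptor for oxysterols that is made in fat cells, liver and macrophages and whose gene is a known target of PPARG. It had 16.4 and 18.1 CPM in knockout and 10.0 and 7.80 CPM in WT. The groups did not overlap, and the lower knockout library was above the higher WT library. Means were 17.2 ± 1.22 CPM in knockout and 8.92 ± 1.59 CPM in WT, with a log2 fold change of 0.95 ± 0.17 (adjusted p = 0.0218). The call was lost without knockout replicate 2 (0.88, adjusted p = 0.0764) and without WT replicate 2 (0.77, adjusted p = 0.0883). Its paralogue Nr1h2, LXR-beta, which most tissues make, had 15.7 and 18.6 CPM in knockout and 18.2 and 20.7 CPM in WT (log2 fold change -0.19 ± 0.15, adjusted p = 0.658). The ratio of Nr1h3 to Nr1h2 was 1.04 and 0.972 in knockout and 0.552 and 0.377 in WT. The 12 macrophage markers all had a positive log2 fold change with a median of 0.26, none was called by edgeR or DESeq2 and none was at 0, and their summed level was 399 and 426 CPM in knockout and 336 and 389 CPM in WT. Their part in the Nr1h3 values was not tested.

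**Figure D2:**
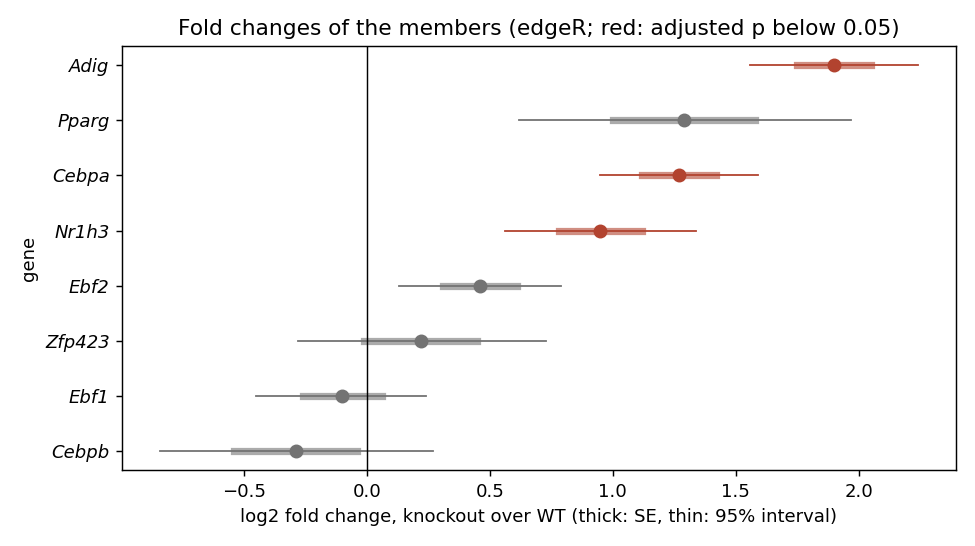
Log2 fold change, knockout over WT (x axis), of each gene (y axis) from the edgeR fit of 2 knockout and 2 WT libraries, with thick bars for the SE and thin bars for the 95% interval. Adig, Cebpa and Nr1h3 passed the test (red), and Pparg lies level with Cebpa but with a wider interval, 0.62 to 1.97.

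Cebpb (ENSMUSG00000056501, chromosome 2, 167688915 to 167690418), the early C/EBP factor, is also made in myeloid cells. It had 14.6 and 8.44 CPM in knockout and 12.9 and 15.7 CPM in WT. Knockout replicate 1 lay between the WT libraries and knockout replicate 2 below both. The log2 fold change was -0.29 ± 0.25 (95% interval -0.84 to 0.27, adjusted p = 0.685). It was 0.04 without knockout replicate 2 and -0.77 without knockout replicate 1, with no call in either. Knockout replicate 1 also held the most neutrophil RNA, with 12 markers summing to 34.7 and 3.92 CPM in knockout and 1.23 and 2.42 CPM in WT. Of these 12, 3 were tested, none was called by the main edgeR fit (0 at an unadjusted p below 0.05) or DESeq2, and none was at 0 in all libraries. A replicate block in the edgeR fit gave calls of S100a8 and S100a9 as higher. Without knockout replicate 2, edgeR tested 9 and called 6 higher. Mpo, an enzyme of neutrophil granules, had 22 counts in knockout replicate 1 and 0 in the other 3 libraries. With no filter on low counts, edgeR called Mpo higher. The part of these cells in the Cebpb values was not tested. Tmem189, on the opposite strand, shares 312 exonic bases with Cebpb and had between 53 and 140 counts per library.

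The ratio of the C/EBP genes within a library did not overlap between the groups. That of Cebpa to Cebpb in CPM was 2.47 and 4.86 in knockout and 1.14 and 1.10 in WT. The knockout ratios were both above the WT ratios and lay further apart from each other. On the log2 scale the difference was 1.63, and the exact two-sided permutation test gave p = 0.333, the smallest that 2 libraries against 2 allow. Cebpd, a further early C/EBP gene, had 31.9 and 19.3 CPM in knockout and 16.02 and 20.3 CPM in WT, with overlapping groups (0.50 ± 0.24, adjusted p = 0.429).

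None of the progenitor factors passed the test. Ebf1 (ENSMUSG00000057098, chromosome 11, 44617317 to 45008091), a factor of progenitors, fat cells, pericytes and B cells, had 22.1 and 28.2 CPM in knockout and 28.8 and 25.1 CPM in WT. Its groups overlapped, and the log2 fold change was -0.10 ± 0.16 (95% interval -0.45 to 0.24, adjusted p = 0.844). The B cell gene Pax5 had 14 counts in knockout replicate 1, the library with the least Ebf1, and 0 in the other 3. Of 8 B cell markers, 2 were tested and 1, Igkc, was called higher. Their summed level was 43.8 and 35.6 CPM in knockout and 32.8 and 30.3 CPM in WT, none was at 0 in all libraries, and their part in the Ebf1 values was not tested.

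Ebf2 (ENSMUSG00000022053, chromosome 14, 67233292 to 67430918), known as a selector of brown and beige fat cells, had 16.6 and 18.1 CPM in knockout and 12.5 and 12.6 CPM in WT. Both knockout libraries were higher, with little spread in either group. The log2 fold change of 0.46 ± 0.15 (95% interval 0.13 to 0.79) had an unadjusted p = 0.0107 and did not pass the edgeR test (adjusted p = 0.175). It lay between 0.40 and 0.52 under every alternative run and was called under none. An unadjusted p below 0.05 was reached by 5 of the 8 genes and by 14.0% of all tested genes. The ratio of Ebf2 to Ebf1 was 0.749 and 0.640 in knockout and 0.434 and 0.503 in WT.

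Zfp423 (ENSMUSG00000045333, chromosome 8, 87661810 to 87959595), a zinc finger factor of preadipocytes, was the least abundant of the 8 genes in both groups. It had 6.27 and 9.12 CPM in knockout and 6.92 and 6.09 CPM in WT, so that the knockout libraries lay on either side of WT replicate 1. The log2 fold change was 0.22 ± 0.23 (95% interval -0.28 to 0.73, adjusted p = 0.743). Of 14 markers of fibro-adipogenic progenitors, all tested, none was called by the main edgeR fit in either direction. An unadjusted edgeR p below 0.05 was reached by 10 of them and by 14.0% of all tested genes. DESeq2 called 1 lower, Smoc2. With no filter on low counts, edgeR called Pi16 and Smoc2 lower and Osr1 higher. In the main fit the sign was positive for 4 of the 14 markers, Pdgfra among them, and the median log2 fold change was -0.22. By p the list was led by Pi16 (-0.55 ± 0.14, edgeR adjusted p = 0.0833) and Smoc2 (-0.53 ± 0.14, adjusted p = 0.108), with lower values in knockout. Osr1 came next and was higher (1.03 ± 0.29, adjusted p = 0.115). Pdgfra, the receptor by which these cells are known, had 71.8 and 72.8 CPM in knockout and 56.4 and 61.3 CPM in WT (0.30 ± 0.12, adjusted p = 0.290). Per 1000 CPM of the summed progenitor markers, Zfp423 stood at 2.09 and 3.17 CPM in knockout and at 2.47 and 2.56 CPM in WT. That sum was 2998 and 2879 CPM in knockout and 2801 and 2379 CPM in WT. Gsn was its largest part, at 1773 and 1747 CPM in knockout and 1489 and 1063 CPM in WT. The sign of Gsn (0.46 ± 0.17) was opposite to the list median, and no sum without Gsn was computed, so this ratio does not measure progenitor content.

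To compare levels between genes, CPM were divided by the length of each gene's exons in kb. In knockout muscle Adig stood highest at 35.1 ± 3.25 CPM per kb, followed by Cebpa at 14.6 ± 1.29. Cebpb (7.67 ± 2.91), Pparg (7.53 ± 0.848) and Nr1h3 (6.84 ± 0.485) came next and did not differ from each other beyond their spread. Ebf1 (2.58 ± 0.440) and Ebf2 (2.50 ± 0.152) did not differ either, and Zfp423 was lowest at 1.37 ± 0.359 CPM per kb. In WT muscle Cebpb (9.50 ± 1.31) and Adig (9.42 ± 0.244) led together. Cebpa followed at 6.06 ± 0.686 CPM per kb, then Nr1h3 (3.55 ± 0.630), Pparg (3.05 ± 1.41) and Ebf1 (2.76 ± 0.267), which did not differ beyond their spread. Ebf2 (1.82 ± 0.0135) and Zfp423 (1.16 ± 0.105) were lowest.

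Markers of mature fat cells were higher in the same libraries. Of 14 markers, all tested, 11 were called higher and none lower, with a median log2 fold change of 1.58. Their summed level was 7039 and 6287 CPM in knockout and 2445 and 2665 CPM in WT, and none was at 0. Car3, a carbonic anhydrase that muscle also makes, contributed most, with 32.9% and 31.7% of the sum in knockout and 53.2% and 48.0% in WT. Each gene was therefore also set against this sum within its library. Per 1000 CPM of fat cell markers, Cebpa stood at 5.15 and 6.52 CPM in knockout and at 6.01 and 6.47 CPM in WT. Pparg stood at 3.41 and 3.26 CPM in knockout and at 2.48 and 4.48 CPM in WT. With all 14 markers in the sum the groups of Cebpa and Pparg thus overlapped, but this rested on Car3. Without Car3 the sum was 4720 and 4292 CPM in knockout and 1144 and 1386 CPM in WT. Per 1000 CPM of these 13 markers, Cebpa stood at 7.67 and 9.56 CPM in knockout and at 12.8 and 12.4 CPM in WT. Pparg stood at 5.09 and 4.77 CPM in knockout and at 5.30 and 8.61 CPM in WT. Both genes then lay below WT in both knockout libraries. In knockout the largest part of this sum was Cfd, at 2142 and 1607 CPM (380 and 420 CPM in WT). No sum without Cfd was computed, so these positions may rest on Cfd. The sum without Car3 was chosen after seeing the data.

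Relative to the sum of all 14 markers, Nr1h3 was at 2.32 and 2.88 CPM in knockout and at 4.11 and 2.93 CPM in WT, with the knockout libraries lower. Adig was at 4.31 and 4.23 CPM in knockout and at 3.18 and 2.81 CPM in WT, above WT in both knockout libraries. Without Car3 in the sum, Adig was at 6.42 and 6.20 CPM in knockout and at 6.79 and 5.40 CPM in WT, and its groups overlapped. Cebpb, Ebf1, Ebf2 and Zfp423 were below WT in both knockout libraries. Their log2 differences were -1.74, -1.49, -0.92 and -1.16, and -2.19, -1.94, -1.38 and -1.62 without Car3. The sum itself was higher in knockout, so a gene that changed less than the sum lies below WT by construction. The log2 fold changes of these genes themselves were -0.29, -0.10, 0.46 and 0.22. Nr1h3 also lay below WT without Car3, at 3.46 and 4.21 CPM in knockout and 8.78 and 5.63 CPM in WT. Where groups did not overlap, the exact two-sided permutation p was 0.333, the smallest possible here. The part that fat cell content had in the values of single genes was not tested.

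**Figure D3:**
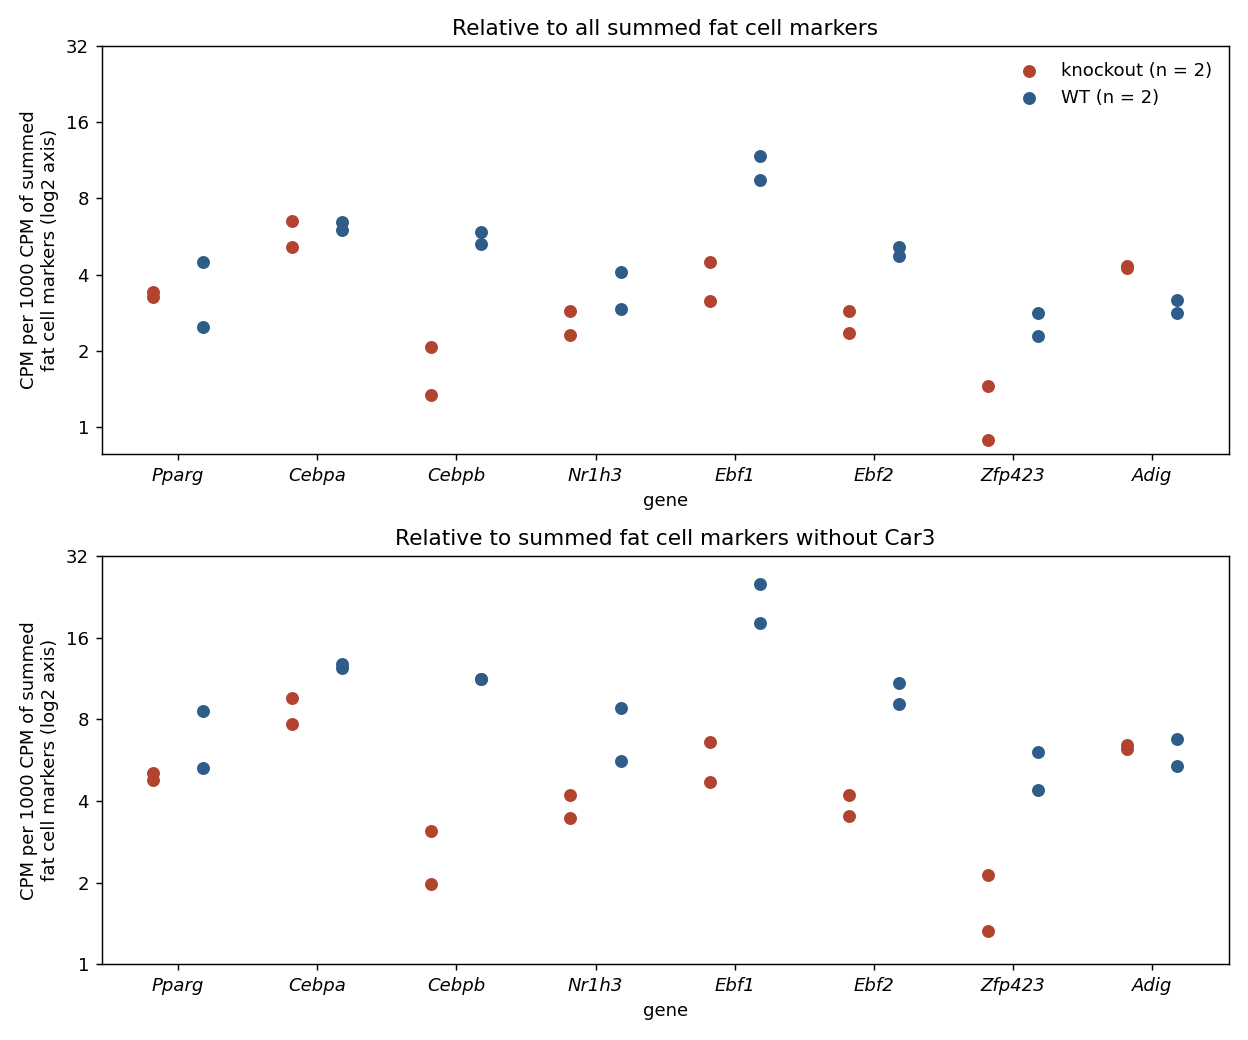
CPM of each gene per 1000 CPM of summed fat cell markers (y axis, log2 scale) in each library, knockout left of WT (points, n = 2 each), for all 14 markers (top) and without Car3 (bottom). Both sums were higher in knockout than in WT. Cebpb, Nr1h3, Ebf1, Ebf2 and Zfp423 lie below WT in both panels. Cebpa and Pparg overlap with WT in the top panel and lie below it in the bottom one. Adig lies above WT in the top panel and overlaps with it in the bottom one.

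Among other regulators of fat cell formation calls were few. Of 29 activators and partners, all tested, 1 was called higher and none lower, with a median log2 fold change of 0.06. That gene was Srebf1, which encodes the lipogenic factor SREBP-1 and is a known target of LXR. It had 49.7 and 56.5 CPM in knockout and 27.3 and 29.3 CPM in WT (0.91 ± 0.13, adjusted p = 0.00583). Stat5a (0.49 ± 0.17, adjusted p = 0.202) and Prdm16, a brown fat regulator (-0.61 ± 0.25, adjusted p = 0.304), had the next smallest p. The partners with which PPARG and LXR bind DNA, Rxra (0.19 ± 0.14), Rxrb (0.04 ± 0.19) and Rxrg (0.36 ± 0.15), were not called (edgeR adjusted p from 0.308 to 0.959). Of 26 inhibitors 24 were tested, none was called by edgeR (3 had an unadjusted p below 0.05) or DESeq2, and the median was 0.04. Without knockout replicate 2, Irf4 was called higher (1.33, edgeR adjusted p = 0.0085). Those with the smallest p were Klf3 (-0.47 ± 0.13, adjusted p = 0.130), Irf4 (0.94 ± 0.32, adjusted p = 0.255) and Smad3 (-0.28 ± 0.12, adjusted p = 0.329). Over all 24 inhibitors the edgeR log2 fold changes ran from -0.47 to 0.94.

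Known targets of the factors held more calls. Of 30 PPARG targets 29 were tested, 17 passed as higher and none as lower, the sign was positive for 27, and the median log2 fold change was 1.29. By p these were led by Cidec (1.93 ± 0.14), Adipoq, which encodes adiponectin (1.92 ± 0.14), Pck1, which serves glycerol synthesis in fat (1.78 ± 0.14), Retn (1.63 ± 0.14), the lipase gene Pnpla2 (1.29 ± 0.13), the lactate receptor gene Hcar1 (2.36 ± 0.24), the lipid chaperone gene Fabp4 (1.48 ± 0.15) and the transporter gene Slc27a1 (1.29 ± 0.13). Fabp4, for example, had 1218 and 1227 CPM in knockout and 387 and 490 CPM in WT. The list shares 8 genes with the fat cell markers. Of its 21 other tested genes 10 were called higher and none lower, with a median of 1.17. Gpam and Gk, enzymes of glycerolipid synthesis, did not follow (-0.02 ± 0.12 and -0.13 ± 0.48, edgeR adjusted p = 0.971 and 0.948).

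Of 16 C/EBP targets 14 could be tested, 7 of them higher with a call and none lower, at a median log2 fold change of 1.70. Hp, haptoglobin, had 104 and 102 CPM in knockout and 19.6 and 14.4 CPM in WT (2.60 ± 0.16, adjusted p = 8.94e-05), and Cfd (2.23 ± 0.17) and Orm1, an acute-phase protein gene (1.77 ± 0.24), were called too. The other 4 called genes, Adipoq, Pck1, Retn and Fabp4, are also among the PPARG targets. Slc2a4, the insulin-responsive glucose transporter gene that muscle fibres also make, stood at 0.01 ± 0.16 (edgeR adjusted p = 0.981). This list shares 6 genes with the fat cell markers, and of the 8 others tested 2 were called higher (median 1.31).

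Of 18 LXR targets 16 could be tested, 4 of them higher with a call and none lower, at a median log2 fold change of 0.52. Apoc1, a lipoprotein gene, had 29.6 and 24.4 CPM in knockout and 4.36 and 7.80 CPM in WT (2.14 ± 0.24, adjusted p = 0.00272). Lpl, lipoprotein lipase, a target of PPARG as well (1.17 ± 0.16, adjusted p = 0.00409), Srebf1 and Apoe (0.71 ± 0.15, adjusted p = 0.0488) were also called. The call of Apoe was lost without knockout replicate 1 (0.60), knockout replicate 2 (0.81) or WT replicate 1 (0.53) and, at an adjusted p just above the threshold, with relative log expression size factors (0.70, adjusted p = 0.0523) and without abundant non-coding RNAs in the library sizes (0.71, adjusted p = 0.0519). The cholesterol exporters Abca1 (0.31 ± 0.15, adjusted p = 0.396) and Abcg1 (0.48 ± 0.23, adjusted p = 0.407), classical LXR targets, were not called. These lists hold many genes of fat cells themselves, and the fat cell markers above rose in the same libraries. None of the lists was tested as a set.

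**Figure D4:**
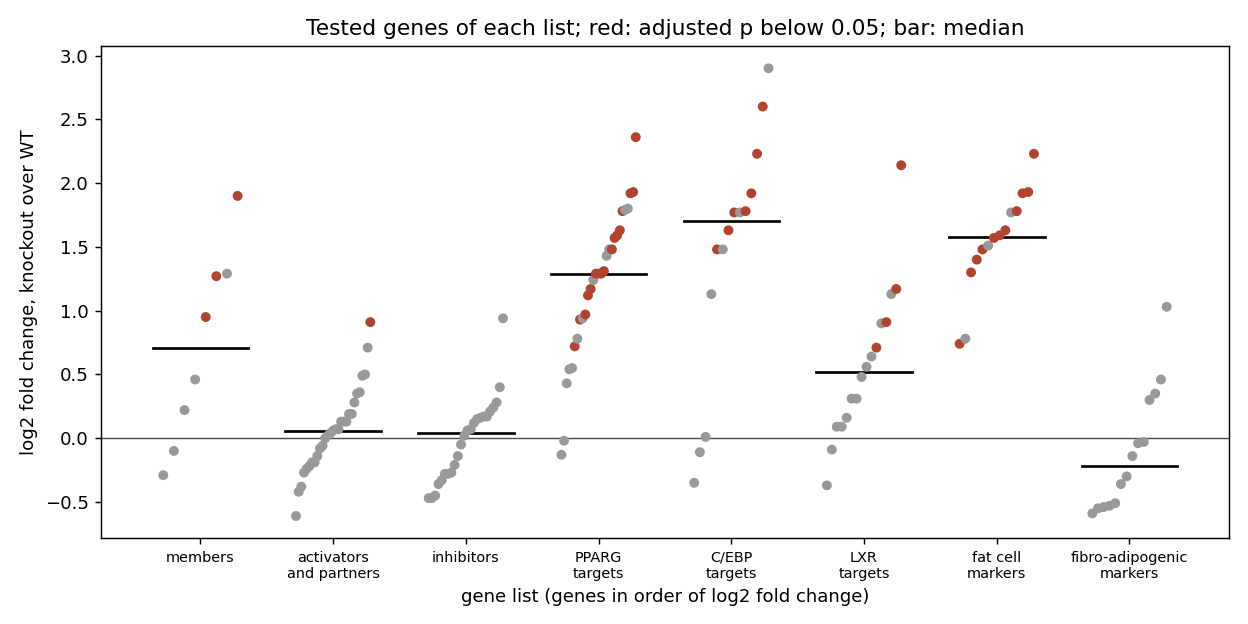
Log2 fold changes, knockout over WT (y axis), for the tested genes of each list (x axis), in order within the list, with bars for medians and red for adjusted p below 0.05. The medians are 0.70 for the 8 genes, 0.06 for activators and partners, 0.04 for inhibitors, 1.29, 1.70 and 0.52 for PPARG, C/EBP and LXR targets, 1.58 for fat cell markers and -0.22 for fibro-adipogenic markers.

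The genes most like each called member across the 4 libraries were found among 8777 genes with a mean of at least 5 CPM, by the root mean square difference of log2 CPM centred on each gene's mean. For Cebpa these were Bscl2, which encodes the lipid droplet protein seipin (0.039), Pde3b, a phosphodiesterase that restrains lipolysis (0.054), and Adrb3, the beta-3 adrenergic receptor of fat cells (0.060). Bscl2 had 21.1 CPM on average in knockout and 8.61 CPM in WT. For Adig they were Hsd11b1, which regenerates glucocorticoid (0.092), Cidec (0.111) and Ankef1 (0.117). For Nr1h3 they were Ppp2r1b (0.050) and Slc16a7 (0.051), neither of which was called by edgeR (adjusted p = 0.0502 and 0.0630), and Tuba1c (0.072), whose call (adjusted p = 0.0343) was lost with DESeq2 (adjusted p = 0.0663) and without knockout replicate 1, knockout replicate 2 or WT replicate 2 (log2 fold changes 1.20, 1.01 and 0.90). This is a description over 4 libraries that share their 2 groups.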

How the data were processed

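The authors deposited unnormalised read counts for each Ensembl gene ID, in 1 file per library. The submitters' processing notes name Trimmomatic, STAR and DESeq2 and build GRCm38 (mm10), with versions and settings not given in the sources used. Of 55573 gene IDs, 55480 (99.83%) matched GENCODE M21, which gave symbols, coordinates and exon lengths. The counts were checked for strand: of 462 genes wholly under exons of an opposite-strand gene 121 had a count, and of 608 under exons of the same strand 1 had.

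Genes kept by filterByExpr (minimum count 10, minimum total 15) numbered 13076. edgeR 4.0.16 in R 4.3.3 fitted genotype with TMM scaling (factors 0.9797 to 1.0485) and the robust quasi-likelihood test, with Benjamini-Hochberg adjustment over all tested genes, called below 0.05. The test was tried on simulated data. SEs came from the F statistic. Total counts of 10.79 M to 21.34 M limit the precision at low levels. Of these counts, the abundant non-coding RNAs mt-Rnr2, mt-Rnr1 and Rn7sk took 34.49% to 37.76%, 6.73% to 7.93% and 3.46% to 4.86%. Fewer counts were thus left for other genes. Alternatives were RLE scaling, library sizes without abundant non-coding RNAs, DESeq2 1.42.0, other filters, single libraries left out and a replicate block. The earlier form of the quasi-likelihood test and a fat cell marker sum without Car3 were added after seeing the data.

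The 8 genes, all gene lists and the naming rule were chosen with earlier results of these data known. The rule names the 8 genes, the called genes (up to 8) and the 3 smallest p in each list of regulators and targets, the most abundant markers, the sex-linked genes, Vdr, and the 3 genes most like each called member. Other genes named in the text were chosen after their values were seen.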

Additional observations from a re-analysis of the deposited data

How the results depend on the processing

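Adig and Cebpa were called higher, and Ebf2 was not called, under all 11 alternatives run. The count of genes called higher among the 8 was 3, with a range of 2 to 4 when 1 library was left out and 4 with DESeq2. Over all genes, 265 were called, 211 higher and 54 lower. Without a filter on low counts these were 476, 355 and 121. Leaving out 1 library gave 216 to 332 calls, 177 to 262 higher and 39 to 90 lower, the last without WT replicate 1, which kept 183 of the 265 calls. Each such run has fewer libraries and assumes that the lone library of its group varies like the other group. With the replicate block 346 genes were called, 274 higher and 72 lower, and the calls among the 8 genes did not change (Pparg at 1.34, adjusted p = 0.0768). The labels do not say whether libraries with the same replicate number were handled together. The differences between replicates 1 and 2 correlated at r = 0.039 across genes between the groups. That value cannot exclude an effect shared by some genes. The earlier form of the quasi-likelihood test gave 323 calls.

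The sign turned, without a call, for Cebpb (0.04) and Zfp423 (-0.04) without knockout replicate 2 and for Ebf1 (0.06) without knockout replicate 1. Over the runs without 1 library the values ran from -0.77 to 0.04 for Cebpb, from -0.04 to 0.49 for Zfp423 and from -0.28 to 0.06 for Ebf1. Among other named genes it turned for Cox8b with relative log expression size factors (-0.0027), with DESeq2 (-0.0029), without knockout replicate 2 (-0.15) and without WT replicate 2 (-0.10). It turned for Dcn (0.14 and 0.07) and Lyz2 (-0.05 and -0.08) without knockout replicate 2 and without WT replicate 1, for Pecam1 without knockout replicate 2 (0.10) and WT replicate 2 (0.09) and for Myh4 without WT replicate 1 (0.08). The opposite ends of these runs were 0.15 for Cox8b, -0.24 for Dcn, 0.12 for Lyz2, -0.20 for Pecam1 and -0.10 for Myh4. The cause of these turns was not tested. List medians ran from 0.62 to 0.77 for the 8 genes, from 1.08 to 1.43 for PPARG targets and from 0.41 to 0.59 for LXR targets. Those of activators and partners fell to -0.07, and those of inhibitors to -0.07, without knockout replicate 1. With 2 libraries a group, the intervals of Cebpb, Ebf1 and Zfp423 leave room for changes in either direction. Relative to fat cell markers, the positions of Cebpa, Pparg and Adig against WT depended on whether Car3 was in the sum. Those of the other 5 genes did not. Sums without other single markers were not computed.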
